A study of Mus musculus with 12 samples.

Results

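Outer hair cells (OHCs) and inner hair cells (IHCs) are the sensory cells of the mammalian cochlea, and 7 genes for transcription factors linked to the OHC fate are described here in sorted pools of both. The genes are Insm1, Insm2, Ikzf2, Bcl11b, Neurod6, Neurod1 and Prox1. They were chosen by name, with results of these same pools already known, and make up 7 of the 55416 genes counted. Because the choice drew on the contrast of OHCs against IHCs, the levels of the 7 genes in that contrast are given as a description, with no test.

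The study sequenced 12 RNA libraries from the organ of Corti of mice at postnatal day 0 (P0), 6 from pools of IHCs and 6 from pools of OHCs, with the genotype given as WT for all. Cells were collected by fluorescence-activated sorting, IHCs for green fluorescence from Atoh1-GFP and OHCs for green fluorescence together with red R26-TdTomato. TdTomato was switched on by Insm1-GFP-Cre, in which the promoter of Insm1 drives the recombinase, so a member of the group helped to define the OHC pools. The parents were tdTomato males and females carrying both Insm1-GFP-Cre and Atoh1-GFP, and each pool mixed cells of several pups that were not sexed. The sources used here do not say whether reads of the GFP-Cre transcript were counted on Insm1, so these and reads of the intact gene cannot be told apart. In pooled cells, fewer expressing cells and less RNA per cell cannot be told apart either. The libraries held 31490204 to 44017309 counts on genes in IHC pools and 29564827 to 39121988 in OHC pools, of which ribosomal RNA took 21.5% to 56.9% and 23.4% to 36.4%.

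OHC identity is laid down around birth by factors that act largely as repressors. INSM1 and INSM2 are zinc finger proteins with a SNAG domain, which recruits histone demethylase and deacetylase complexes, and INSM1 keeps young OHCs from turning on IHC genes. IKZF2 (Helios), a zinc finger protein of the Ikaros family, acts later to maintain OHC gene expression. BCL11B is a zinc finger repressor known best from T cells and neurons, NEUROD1 and NEUROD6 are basic helix-loop-helix proteins that bind E-boxes as partners of E proteins, and PROX1 is a homeodomain protein of supporting cells, young OHCs, lymphatic endothelium and neurons. TBX2 is the factor that directs the IHC fate.

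The 7 genes lie on chromosomes 1, 2, 6 and 12 of the GRCm39 build, at positions from the GENCODE vM39 annotation. Insm1 (ENSMUSG00000068154.6) occupies chr2:146063841-146066940 on the plus strand and has 1 exon of 3100 bp. Insm2 (ENSMUSG00000045440.5) lies at chr12:55646212-55648871 on the plus strand, also as 1 exon, of 2660 bp. Neurod6 (ENSMUSG00000037984.10) lies at chr6:55654807-55658326 on the minus strand and Neurod1 (ENSMUSG00000034701.10) at chr2:79282865-79287294, also on the minus strand. Bcl11b (ENSMUSG00000048251.16) spans chr12:107876656-107970417, Ikzf2 (ENSMUSG00000025997.14) chr1:69570373-69727004 and Prox1 (ENSMUSG00000010175.14) chr1:189850232-189904637, all 3 on the minus strand. Neurod6 shares 28.5% of its exonic bases with the antisense gene Gm3279, which had 0 counts in every library. Prox1 shares 10.9% with antisense Prox1os, which reached 62 counts in an OHC library and was at 0 in all IHC libraries. Ikzf2 shares 1.10% with antisense Gm29114, which reached 242 counts in an IHC library.

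The 250 bases upstream of the start of the Ensembl canonical transcript are shown for the 4 genes whose counts were near 0 in IHC pools and high in OHC pools. They were read 5′ to 3′ on the strand of the gene from GRCm39. Capitals mark the E-box form CAGATG or a TATA box (TATAAA), and E-box forms that were not searched are not marked.
Insm1, chr2:146063591-146063840, plus strand: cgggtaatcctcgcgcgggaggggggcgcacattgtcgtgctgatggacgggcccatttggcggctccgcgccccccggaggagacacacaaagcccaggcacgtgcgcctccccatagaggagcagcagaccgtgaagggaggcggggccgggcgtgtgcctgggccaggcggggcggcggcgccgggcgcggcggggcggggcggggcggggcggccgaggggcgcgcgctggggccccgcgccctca
Insm2, chr12:55645962-55646211, plus strand: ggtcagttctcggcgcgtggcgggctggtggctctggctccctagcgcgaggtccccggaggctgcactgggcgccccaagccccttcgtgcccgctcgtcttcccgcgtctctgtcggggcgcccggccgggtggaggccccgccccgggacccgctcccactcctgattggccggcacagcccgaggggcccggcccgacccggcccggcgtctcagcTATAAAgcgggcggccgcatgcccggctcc
Bcl11b, chr12:107970418-107970667, minus strand: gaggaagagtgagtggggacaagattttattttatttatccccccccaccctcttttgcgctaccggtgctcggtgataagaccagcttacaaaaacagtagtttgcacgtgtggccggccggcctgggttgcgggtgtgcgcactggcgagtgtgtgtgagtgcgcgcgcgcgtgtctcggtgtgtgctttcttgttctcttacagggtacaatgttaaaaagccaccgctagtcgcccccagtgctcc
Neurod6, chr6:55658327-55658576, minus strand: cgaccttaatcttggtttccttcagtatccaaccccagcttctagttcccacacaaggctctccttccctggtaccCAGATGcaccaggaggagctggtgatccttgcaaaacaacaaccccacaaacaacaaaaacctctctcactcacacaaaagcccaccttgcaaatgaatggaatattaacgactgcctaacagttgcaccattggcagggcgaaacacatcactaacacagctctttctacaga

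The stretches before the 2 Insm genes were the richest in G and C of the 4. Insm1 had 78.8% G and C and Insm2 76.8%, where 53.2% was the median over the 21730 upstream stretches of protein-coding genes. Bcl11b had 55.6% and Neurod6 47.6%. Of the members whose stretches are not shown, Ikzf2 had 82.8%, more than either Insm gene, Neurod1 63.6% and Prox1 50.8%. The ratio of observed to expected CpG was 0.931 for Insm1, 0.845 for Insm2, 0.885 for Bcl11b and 0.244 for Neurod6, against a median of 0.474. This ratio was 1.29 for Ikzf2, 0.704 for Neurod1 and 0.709 for Prox1. The E-box CAGATG, the palindromic E-box CAGCTG and a further form, CAGGTG, which basic helix-loop-helix proteins can bind, were searched on both strands. The TATA box TATAAA was searched on the strand of the gene. Neurod6 held 1 CAGATG, from 174 to 169 bases before the start, a motif found in 13.0% of all such stretches. The stretches of Prox1 and Neurod1, not shown, also held 1 CAGATG each. Insm2 held 1 TATAAA, from 30 to 25 bases before the start, which 8.03% of all stretches hold. None of the 4 motifs was found in the stretches of Insm1 and Bcl11b. Other E-box forms were not searched, so a lack of E-boxes is not shown. The printed stretches of Insm1 and Bcl11b hold the form CACGTG, and that of Neurod6 holds CAAATG and CAGTTG.

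In all, 5 of the 7 genes were higher in every OHC pool than in every IHC pool, Ikzf2 was not, and Neurod1 had no counts in OHC pools. In the fit over 13269 genes, which left out Neurod1 for its low counts, these 5 genes, Insm1, Insm2, Bcl11b, Neurod6 and Prox1, passed the threshold as OHC-enriched and none as IHC-enriched. Of all genes tested, 2.44% were OHC-enriched, 3.81% IHC-enriched and 6.26% either. Since the genes were selected on this contrast, nothing is read from their count. A higher level in OHC pools at P0 was not seen for Ikzf2, whose ranges overlapped, and Neurod1 had too few counts in either cell type to be compared.

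**Figure D1:**
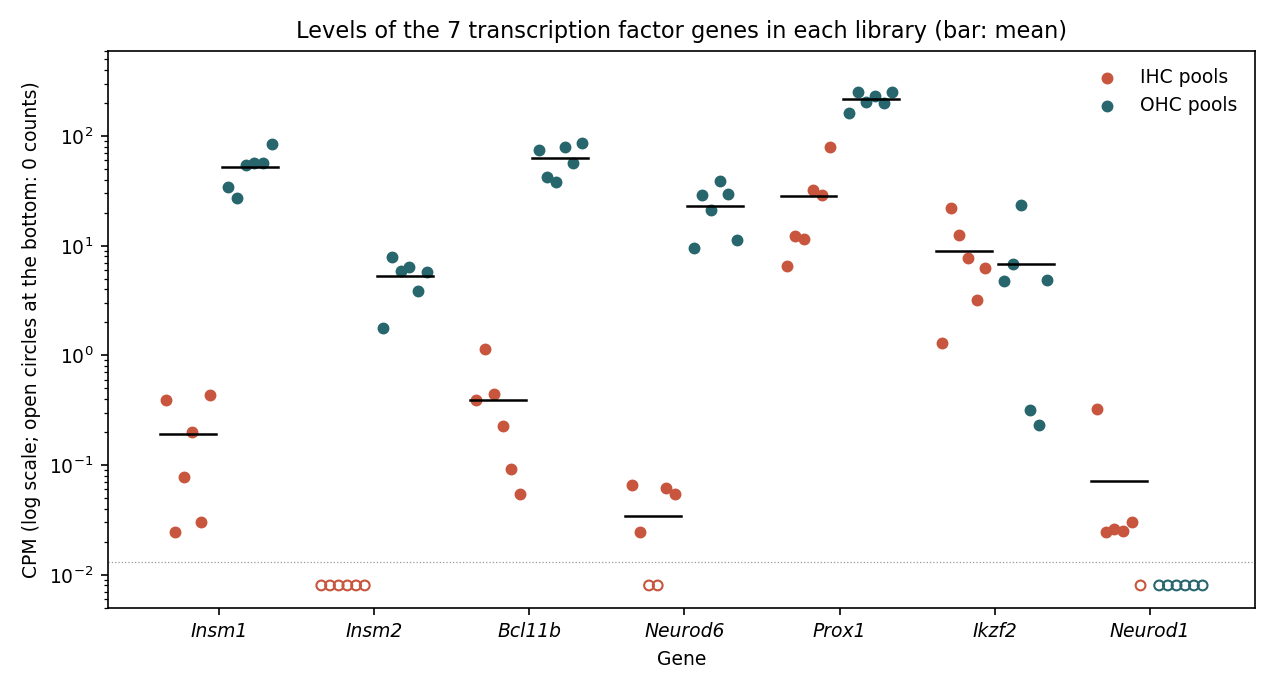
Level of each of the 7 genes in every library, in CPM (counts per 1000000 counts of the normalized library) on a log axis, with IHC pools in red and OHC pools in blue-green. Bars are means over 6 pools and open circles at the bottom are libraries with 0 counts. Insm1, Insm2, Bcl11b, Neurod6 and Prox1 separate the cell types, while the points of Ikzf2 overlap.

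Insm1 was present in all 6 OHC pools and close to absent in all 6 IHC pools. From replicate 1 to replicate 6 its counts were 1607, 894, 2019, 1971, 1720 and 3622 in OHC pools and 6, 1, 3, 8, 1 and 16 in IHC pools. As CPM on the TMM-normalized library size this was 34.6, 27.3, 54.8, 57.3, 57.4 and 84.8 CPM in OHC pools, with a mean of 52.7 ± 20.3 CPM (SD, n = 6). The mean in IHC pools was 0.194 ± 0.183 CPM (SD, n = 6). Replicate 6 was the highest pool of both cell types, and the lowest OHC pool was 62.5-fold above the highest IHC pool. The fitted log2 fold change was 8.14 (SE 0.71), and the ratio of the means was 272.

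Insm2, the intronless relative of Insm1, was detected in OHC pools only. It had 83, 259, 216, 221, 115 and 246 counts in OHC replicates 1 to 6, or 1.79, 7.90, 5.86, 6.43, 3.84 and 5.76 CPM, and 0 counts in each IHC library. Its OHC mean was 5.26 ± 2.14 CPM (SD, n = 6), at least 52.9-fold above a floor of 3 counts in each IHC library. Insm2 did not follow Insm1 from pool to pool, with the lowest Insm1 pool, replicate 2, holding the most Insm2. Per kilobase of exon, Insm2 was 33.8% of Insm1 in that pool and 6.02%, 12.5%, 13.1%, 7.79% and 7.92% in OHC replicates 1, 3, 4, 5 and 6.

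Bcl11b was as abundant as Insm1 in OHC pools on the scale of CPM, which is not corrected for length. Its counts were 3457, 1386, 1399, 2708, 1715 and 3727 in OHC replicates 1 to 6 and 6, 47, 17, 9, 3 and 2 in IHC replicates 1 to 6. In OHC pools the levels were 74.5, 42.3, 38.0, 78.7, 57.2 and 87.3 CPM, a mean of 63.0 ± 20.3 CPM (SD, n = 6), against 0.393 ± 0.401 CPM in IHC pools (SD, n = 6). The groups stood 33.1-fold apart at their nearest libraries. The fitted log2 fold change was 7.30 (SE 0.66). The ratio of the means was 160 and became 260 without IHC replicate 2, which held 47 of the 84 IHC counts. BCL11B is a defining factor of T cells, and of 7 lymphoid markers Cd3g and Cd8a were at 0 in every library while the summed level of the list stayed within 0 to 1.83 CPM in IHC and 0 to 0.890 CPM in OHC pools. Ptprc, the most abundant of the list, had at most 75 counts in a library. The highest sum was also in IHC replicate 2, and the part of lymphoid RNA in the Bcl11b counts was not tested.

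Neurod6, best known from differentiating neurons, was at the floor in IHC pools. It had 444, 943, 774, 1337, 897 and 484 counts in OHC replicates 1 to 6, or 9.57, 28.8, 21.0, 38.9, 29.9 and 11.3 CPM, and 1, 1, 0, 0, 2 and 2 counts in IHC replicates 1 to 6. The OHC mean of 23.2 ± 11.4 CPM (SD, n = 6) was at least 234-fold above the floor of 3 counts in each IHC library. The highest OHC pool was 4.06-fold above the lowest, a wider spread among OHC pools than the 3.11-fold of Insm1 or the 2.30-fold of Bcl11b.

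Neurod1, its relative in auditory neurons and endocrine cells, was not detected in OHC pools. It had 0 counts in each of the 6 OHC libraries and 5, 1, 1, 1, 1 and 0 in IHC replicates 1 to 6. With a single IHC library above 3 counts, the difference was not detectable at this depth. Among markers of spiral ganglion neurons, the cells in the cochlea in which Neurod1 is best known, Prph had at most 2 counts in any library. The summed level of that list of 8 was 1025 to 1645 CPM in IHC pools and 308 to 498 CPM in OHC pools. Nefm was the most abundant of the list, and Nefm, Nefl and Snap25 were the 3 of its 4 tested genes that were IHC-enriched. Over all genes tested 3.81% were. The sums rest mainly on these 3 genes. Ntrk2, tested but not called, was at 9.23 CPM in IHC and 1.15 CPM in OHC pools. Slc17a7 reached 3 counts in an IHC and 196 in an OHC library, Gap43 34 and 84, and Scrt2 4 and 6. The part of spiral ganglion neuron RNA in the Neurod1 counts was not tested.

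Prox1 was the most abundant of the 7 genes in both cell types and the one that differed in degree rather than in presence. It had 7497, 8356, 7575, 7933, 5967 and 10675 counts in OHC replicates 1 to 6 and 101, 499, 441, 1289, 956 and 2926 in IHC replicates 1 to 6. In OHC pools it was at 161.6, 254.8, 205.6, 230.6, 199.1 and 249.9 CPM, and in IHC pools at 6.61, 12.2, 11.5, 32.5, 29.3 and 79.7 CPM. The pools of OHCs lay within 1.58-fold of each other, those of IHCs within 12.1-fold, and the lowest OHC pool was 2.03-fold above IHC replicate 6. Means were 217 ± 35.3 CPM in OHC and 28.6 ± 27.1 CPM in IHC pools (SD, n = 6 each), with a fitted log2 fold change of 2.92 (SE 0.46). The ratio of the means, 7.58, became 11.8 without IHC replicate 6.

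IHC replicate 6 also had the highest sum of a list of markers of outer supporting cells, which express Prox1. The summed level of 9 such markers, among them Tectb, the most abundant, was 197 to 391 CPM in IHC replicates 1 to 4, 854 CPM in replicate 5 and 916 CPM in replicate 6, and 221 to 531 CPM in OHC pools. Fgfr3, a receptor of outer supporting cells, had 39, 175, 55, 297, 386 and 2692 counts in IHC replicates 1 to 6, the last being 73.3 CPM against 67.8 to 77.8 CPM in OHC pools. The genes near 0 in the other IHC pools stayed near 0 in this one, with 16 counts of Insm1, 0 of Insm2, 2 of Bcl11b and 2 of Neurod6. Of 8 genes of the list tested, Sox2 was IHC-enriched, none was OHC-enriched, and the median log2 fold change was −0.23. The shares over all genes tested were 3.81% and 2.44%. The list is not specific to outer cells, since the study describes Lfng as also labelling inner supporting cells. The study also lists an Fgfr3 promoter element as more open in OHCs, and in hair cells relative to supporting cells. The part of supporting cell RNA in the Prox1 level was not tested. Lymphatic endothelium, which also expresses Prox1, had its marker Lyve1 at 0 in every library, while the summed level of the list of 5 overlapped between cell types, at 17.1 to 194 CPM in IHC and 22.2 to 175 CPM in OHC pools, carried mainly by Ccl21a.

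**Figure D2:**
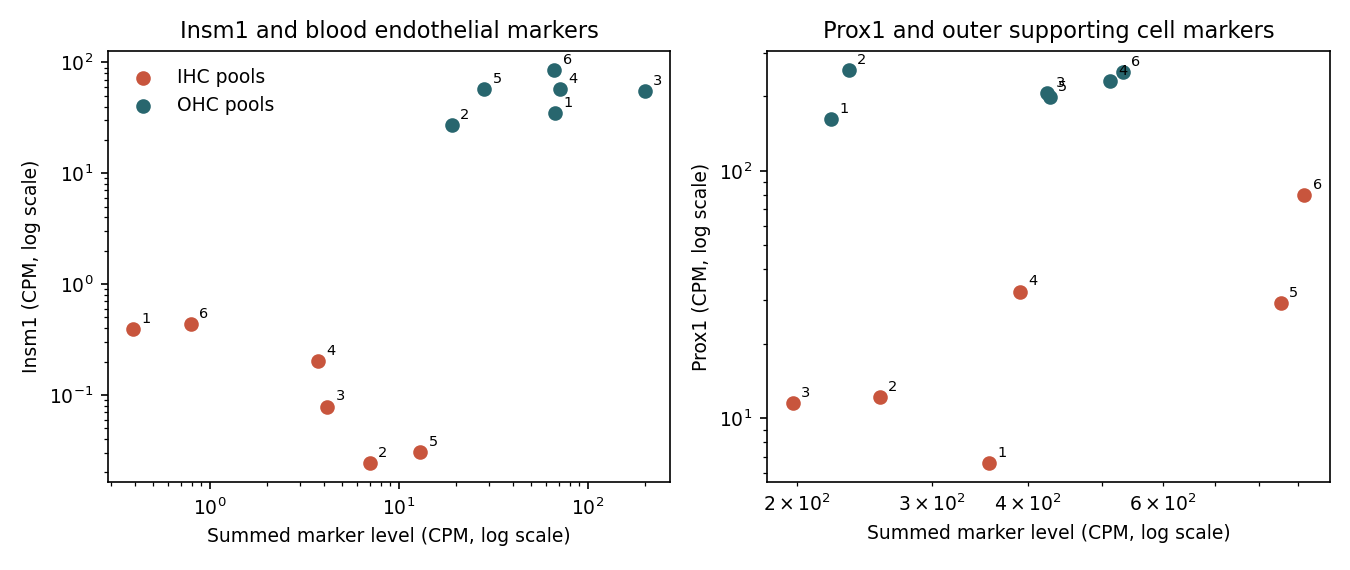
Insm1 against the summed level of 7 blood endothelial markers (left) and Prox1 against that of 9 outer supporting cell markers (right), in CPM on log axes, 1 point a library with its replicate number. OHC pools lie to the right of IHC pools in endothelial markers, and IHC replicate 6 is highest in both Prox1 and supporting cell markers among IHC pools.

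Ikzf2 did not separate the cell types at P0. Its counts were 223, 223, 866, 11, 7 and 207 in OHC replicates 1 to 6 and 20, 913, 475, 310, 104 and 231 in IHC replicates 1 to 6. On the CPM scale this was 4.81, 6.80, 23.5, 0.320, 0.234 and 4.85 in OHC and 1.31, 22.3, 12.4, 7.81, 3.19 and 6.29 in IHC pools. The OHC pools spread over 100.6-fold and the IHC pools over 17.1-fold, and the highest pool of each type was nearly level with the other. Means were 6.75 ± 8.62 CPM in OHC and 8.89 ± 7.62 CPM in IHC pools (SD, n = 6 each), with a fitted log2 fold change of −0.40 (SE 0.91). Single libraries set the ratio of the means, OHC over IHC, which was 0.760 with all libraries, 0.383 without OHC replicate 3 and 1.09 without IHC replicate 2.

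Levels of different genes were compared per kilobase of exon, as CPM per kb. In OHC pools the order was Prox1 at 24.2 ± 3.93, Insm1 at 17.0 ± 6.53, Neurod6 at 10.4 ± 5.13, Bcl11b at 6.69 ± 2.15, Insm2 at 1.98 ± 0.81, Ikzf2 at 0.516 ± 0.660 and Neurod1 at 0 (SD, n = 6 each). Prox1 exceeded Insm1 in 6 of 6 pools, Insm1 exceeded Neurod6 in 5 and Neurod6 exceeded Bcl11b in 4, but the ranges of these neighbours overlapped. The range of Bcl11b lay wholly above that of Insm2, and Insm2 exceeded Ikzf2 in 6 of 6 pools with overlapping ranges. Among 21627 protein-coding genes in OHC pools, Prox1 stood at percentile 96.5, Insm1 at 94.4, Neurod6 at 89.9, Bcl11b at 84.7, Insm2 at 66.6 and Ikzf2 at 51.7. In IHC pools Prox1, at 3.19 CPM per kb, and Ikzf2, at 0.680, were the only members above 0.1 CPM per kb, at percentiles 72.7 and 54.4.

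**Figure D3:**
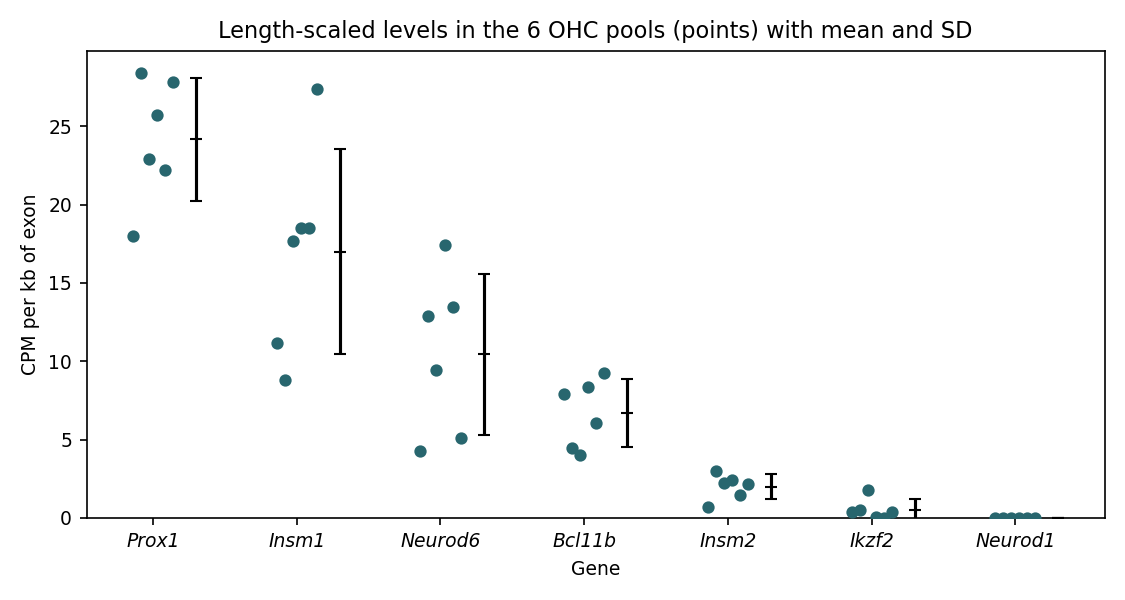
CPM per kilobase of exon for the 7 genes in the 6 OHC pools (points), with the mean and SD beside them. The axis starts at 0, the levels descend from Prox1 at 24.2 to Neurod1 at 0, and the gap between Bcl11b and Insm2 is free of overlap.

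Whether the members rise and fall together from one OHC pool to the next was asked within OHC pools, where the contrast between cell types plays no part. The 5 genes with at least 10 counts in each OHC library, Insm1, Insm2, Bcl11b, Neurod6 and Prox1, form 10 pairs. Pearson's r of log2 CPM ran from −0.37 for Bcl11b and Neurod6 to 0.93 for Insm2 and Prox1, with 6 of 10 pairs positive and a mean of 0.19. By an exact two-sided permutation test over 6 pools, which can give no p below 0.00139, no pair passed the threshold after Benjamini-Hochberg adjustment, and 1 of 10 did so unadjusted. That pair was Insm2 and Prox1, with an exact p of 0.00833 (adjusted 0.0833), where Spearman's rho was 0.829 with an exact p of 0.0583 (adjusted 0.583). Without the 2 pools farthest from the median of Insm2, r fell to 0.52. This leaves few pools over a narrower range of Insm2, so it cannot tell where the relation rests. Without the 2 pools farthest for Insm1, r also moved widely in some other pairs. It went from 0.22 to 0.81 for Insm1 and Prox1 and from −0.08 to −0.83 for Insm1 and Neurod6. Insm1 and Insm2 had an r of 0.17 with an exact p of 0.761 (adjusted 0.906), and a rho of −0.31 with an exact p of 0.564 (adjusted 1). Ikzf2, with 7 counts in OHC replicate 5, and Neurod1, with 0 in each OHC library, missed the rule of 10 counts and were not paired. In IHC pools Ikzf2 and Prox1 form the only pair, with an r of 0.12 and an exact p of 0.807, a rho of 0.0857 and an exact p of 0.919, and an r of −0.46 without 2 pools.

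**Figure D4:**
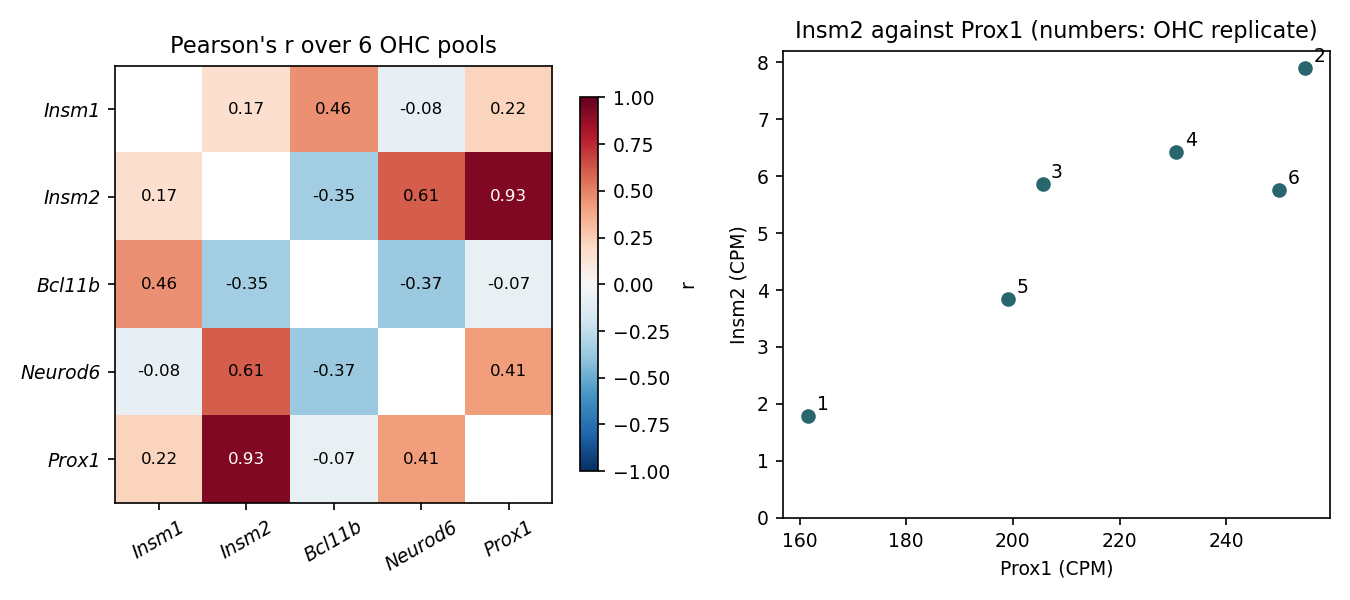
Left, Pearson's r of log2 CPM for each pair of 5 genes over the 6 OHC pools, on a colour scale from −1 to 1. Right, Insm2 against Prox1 in CPM with the number of each OHC pool. Of the 10 pairs only Insm2 and Prox1 exceed 0.9, and replicate 1, low in both, stands apart.

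Over all 12 libraries, the genes whose pattern was most like that of a member were found by the root mean square difference of log2 CPM centred on each gene's mean, where a smaller value means more alike. Since the members differ between cell types, so do these genes, and the values are a description. Nearest to Prox1 were Veph1 at 0.48, Fgfr3 at 0.62 and Anxa7 at 0.73. Veph1 was at 25.9 ± 14.6 CPM in IHC and 224 ± 31.6 CPM in OHC pools (SD, n = 6 each), about the level of Prox1 itself. Nearest to Insm1 were Htr3a, a serotonin receptor subunit, at 0.97, Cav1 at 1.05 and Aplnr at 1.13. Htr3a averaged 25.6 ± 5.96 CPM in OHC and 0.296 ± 0.228 CPM in IHC pools (SD, n = 6 each). Nearest to Bcl11b were Frzb, a secreted Wnt antagonist, at 0.87, the lncRNA Gm30363 at 0.90 and Cyp2j12 at 1.13. Insm2 was nearest to Erg at 0.63, Cav1 at 0.79 and Cysltr2 at 0.82, and Neurod6 to Cav1 at 0.75, Erg at 0.97 and Gm30363 at 1.10. Among the members themselves Insm2 and Neurod6 were the most alike, at 0.93, while Ikzf2 lay 3.05 to 5.13 from the others.

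Cav1, Erg and Aplnr are widely expressed by blood endothelium, and markers of these vessels were higher in OHC pools. The summed level of 7 such markers was 0.392 to 13.0 CPM in IHC pools and 19.0 to 200.1 CPM in OHC pools. Of the 7 genes 5, Pecam1, Cdh5, Cldn5, Kdr and Ptprb, were OHC-enriched, where 2.44% of all genes tested were, and Cdh5 was the most abundant. The highest sum was in OHC replicate 3 and the lowest OHC sum in replicate 2. Ikzf2 was also highest in replicate 3 and Insm1 also lowest in replicate 2, while Bcl11b was lowest in replicate 3 and Insm2 and Prox1 were highest in replicate 2. Without OHC replicate 3 the mean OHC levels were 52.3 CPM for Insm1, 5.14 for Insm2, 68.0 for Bcl11b, 23.7 for Neurod6 and 219 for Prox1, and that of Ikzf2 fell to 3.40 from 6.75 CPM. The part of endothelial RNA in the levels of the members was not tested. Hair cell markers were present in all pools. The IHC markers were chosen with results of these pools known, so their calls are a description, and no list of OHC markers was used. Hair cell markers summed to 5511 to 8107 CPM in IHC and 4396 to 5590 CPM in OHC pools, Myo6 being the most abundant, and all 5 IHC markers were IHC-enriched, with sums of 1963 to 4496 CPM in IHC and 412 to 755 CPM in OHC pools and Otof at the head. Mesenchymal markers, with Otor the most abundant, stayed between 9.88 and 48.8 CPM in all pools.

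The members act among other regulators, and 13 transcription factors of hair cells and of the IHC fate were all tested. None was OHC-enriched and 6 were IHC-enriched, where the shares over all genes tested were 2.44% and 3.81%. The median log2 fold change was −0.71 where that of all genes tested was −0.04. The list holds IHC factors by choice and was drawn up with results of these pools known, so its lean is a description. Of the 13, 0 were past an unadjusted p of 0.05 toward OHCs and 11 toward IHCs, and DESeq2 called 0 and 7. Tbx2 was the furthest, at 78.1 to 248 CPM in IHC pools and 3.84 to 13.0 CPM in OHC pools, with a log2 fold change of −4.58 (SE 0.39, adjusted p 7.5e-07 by edgeR's quasi-likelihood test). Every IHC pool lay above every OHC pool for Tbx2, the reverse of Insm1. Gata3 followed with −1.50 (adjusted p 0.00035), then Gfi1 with −1.02 (0.011) and Sox2, an early prosensory factor, with −1.42 (0.014). Casz1, at −0.71, was at an adjusted p of 0.049 by the same test, which rose to 0.0546 with DESeq2's size factors in edgeR and passed the threshold no longer in 9 of the 12 fits that left out a library.

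INSM1 and INSM2 recruit repressor complexes, and 24 of their subunits were all tested. Of the 24, 1 was called, where the share called over all genes tested was 6.26%. It was Mta1 of the NuRD complex, lower in OHC pools at 17.1 ± 6.73 CPM against 47.7 ± 28.2 CPM (SD, n = 6 each). Its log2 fold change was −1.48 (SE 0.44, adjusted p 0.0499 by edgeR's quasi-likelihood test), and the call was lost with DESeq2's size factors in edgeR (0.0510), without ribosomal RNA and the 20 most abundant genes (0.0504) and in 10 of the 12 fits that left out a library. The median log2 fold change over the 24 was −0.01. RNA of all 24 subunits was measured in both cell types, Chd4 being the most abundant at 426 ± 20.3 CPM in OHC and 642 ± 211 CPM in IHC pools (SD, n = 6 each).

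NEUROD proteins pair with E proteins, which Id proteins sequester, and none of these 7 genes was called in either direction by edgeR's quasi-likelihood test. The share called over all genes tested was 6.26%. Of the 7, 1 was past an unadjusted p of 0.05, Tcf3, toward IHCs, and the edgeR exact test and DESeq2 called 0. Log2 fold changes were −1.03 (SE 0.40) for Tcf3, 0.41 (SE 0.25) for Tcf4 and 0.00 (SE 0.37) for Tcf12. For the Id genes they were −1.32 (SE 0.83) for Id1, −0.34 (SE 0.43) for Id2, −0.34 (SE 0.56) for Id3 and 0.35 (SE 0.21) for Id4. The values of Id1 and Id2 turned to 0.10 and 0.12 without IHC replicate 1. Their median was −0.34. Tcf4, at 209 ± 61.9 CPM in OHC and 157 ± 44.6 CPM in IHC pools, and Id4, at 199.6 ± 53.5 and 156 ± 16.3 CPM (SD, n = 6 each), were the most abundant in OHC pools.

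Close relatives of the members were for the most part too low to test. Of 19 paralogues 5 had enough counts for the test and none was called in either direction, with 1 past an unadjusted p of 0.05 toward OHCs and 2 toward IHCs. Over all genes tested 6.26% were called. Snai3 had 0 counts in every library, and 7 of the 19 had at most 3 in any. Bcl11a, the sister of Bcl11b, was at 75.8 ± 30.2 CPM in OHC and 36.2 ± 15.6 CPM in IHC pools (SD, n = 6 each), a log2 fold change of 1.07 (SE 0.36, adjusted p 0.083 by edgeR's quasi-likelihood test). Ikzf1 (Ikaros) had a log2 fold change of −2.66 (SE 0.83, adjusted p 0.061), and IHC replicate 1 alone held 213 CPM where the other IHC pools held 2.08 to 29.5 CPM. Without that pool the value was −1.06. Ikzf3 and Ikzf4 had −2.06 (SE 1.38) and −1.96 (SE 0.93), and Ikzf5 had 0.40 (SE 0.77). Without OHC replicate 6 the values of Ikzf3 and Ikzf4 were −3.79 and −3.82. DESeq2 called 4 of the 19, 3 of them toward OHCs.

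Genes that carry out the mature work of OHCs were only in part on the OHC side at P0. Of 8 such genes 7 were tested and 3 were OHC-enriched, none IHC-enriched, with a median log2 fold change of 0.09. Over all genes tested the shares were 2.44% and 3.81% and the median was −0.04. Slc26a5, which encodes the motor protein prestin, had 646, 93, 214, 482, 531 and 598 counts in OHC replicates 1 to 6 and 0, 0, 23, 73, 0 and 7 in IHC replicates 1 to 6. Its log2 fold change was 4.66 (SE 1.22, adjusted p 0.025 by edgeR's quasi-likelihood test). Strip2 had 1.33 (SE 0.30, adjusted p 0.0097) and Lbh, a transcription cofactor, 2.43 (SE 0.61, adjusted p 0.020). Without OHC replicate 1, Strip2 was the only call left, with an adjusted p of 0.0506 for Slc26a5 and 0.0605 for Lbh. Without IHC replicate 4 the log2 fold change of Slc26a5 was 6.08. It also missed the threshold without OHC replicate 5 (0.0513) and without OHC replicate 6 (0.0517). The acetylcholine receptor genes Chrna9 and Chrna10 had −0.57 (SE 0.27) and 0.09 (SE 0.30), and Sri had −0.41 (SE 0.44). Ocm, for oncomodulin, had too few counts to be tested.

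**Figure D5:**
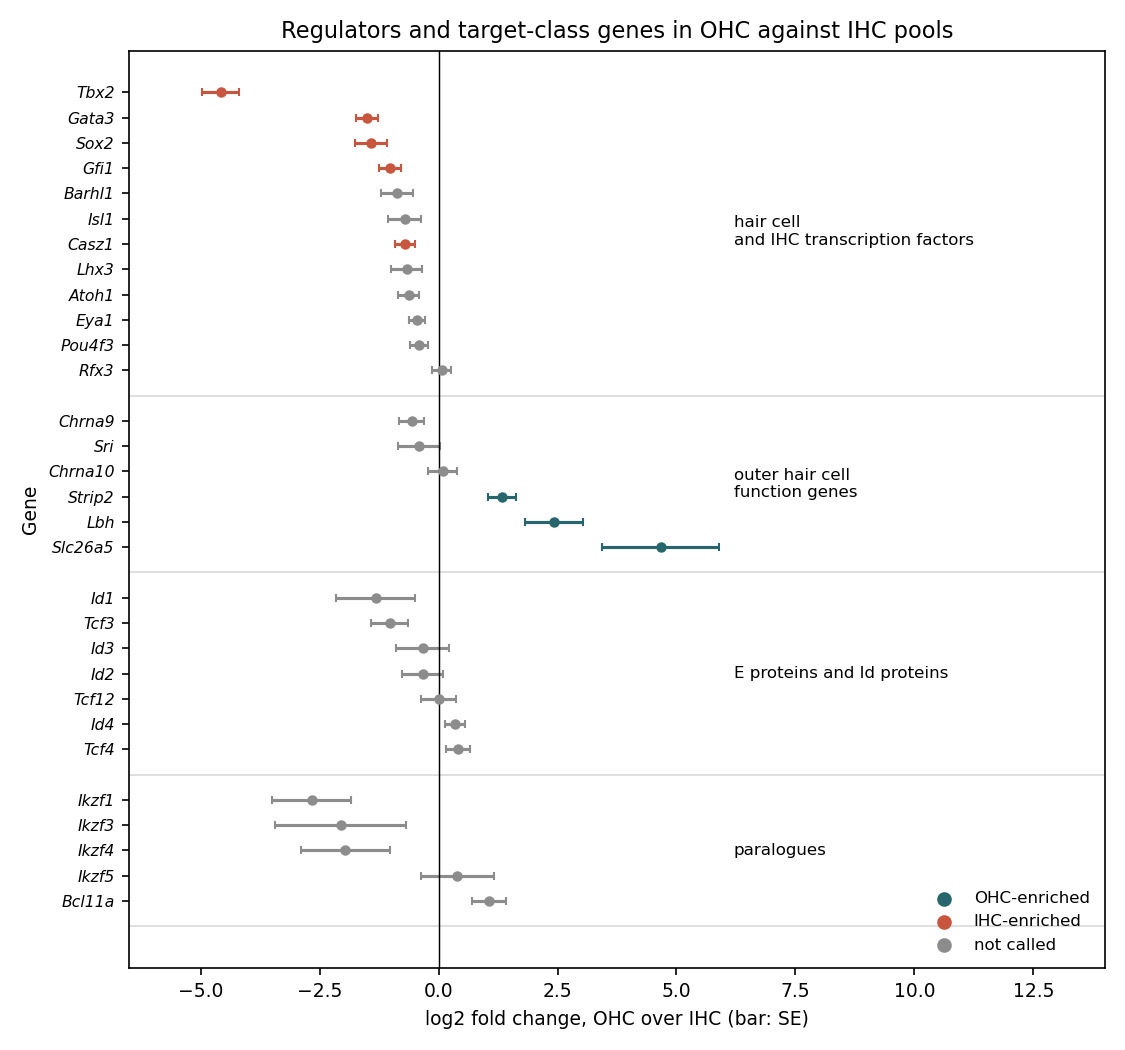
Log2 fold change of OHC over IHC pools with its SE for tested genes of 4 lists of regulators and OHC function genes, coloured where called. Tbx2 is farthest to the IHC side at −4.58 and Slc26a5 farthest to the OHC side at 4.66.

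The genes beside the members on the chromosome were also measured. For each member the nearest tested protein-coding gene on either side was taken, 14 in all, together with 6 genes overlapping a member, which had too few counts for the test. None of the 14 was called by edgeR's quasi-likelihood test, with 2 past an unadjusted p of 0.05 toward OHCs and 0 toward IHCs, and the edgeR exact test called 0 and DESeq2 1. Their median log2 fold change was 0.16, where that of all genes tested was −0.04 and 6.26% of all genes tested were called. Cfap61, 6.9 kb from Insm1, had a log2 fold change of 0.95 (SE 0.34, adjusted p 0.10), and Ralgapa2 on the other side 0.13 (SE 0.30). Ralgapa1, whose end lies 0.8 kb from Insm2, was at 141 ± 27.1 CPM in OHC and 114 ± 40.8 CPM in IHC pools (SD, n = 6 each), with a log2 fold change of 0.32 (SE 0.26), and Nfkbia had −0.84 (SE 0.73). Setd3 and Vrk1 beside Bcl11b had 0.19 (SE 0.28) and 0.96 (SE 0.72). Mindy4 and Pde1c beside Neurod6 had −0.28 (SE 0.94) and 1.11 (SE 0.53), and Itga4 and Itprid2 beside Neurod1 had 1.86 (SE 1.33) and −1.17 (SE 0.58). Without IHC replicate 2 the value of Itga4 was 6.06, and without IHC replicate 5 that of Mindy4 was 0.91. Erbb4 and Spag16 beside Ikzf2 had 1.16 (SE 0.52) and −0.47 (SE 0.56), and Smyd2 and Rps6kc1 beside Prox1 had −0.31 (SE 0.84) and −0.92 (SE 0.54). Without OHC replicate 5 the value of Spag16 was −1.08, and without IHC replicate 5 that of Smyd2 was 0.60.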

How the data were processed

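RNA was measured in 12 libraries, 6 of IHC and 6 of OHC pools, grouped by the sample labels. The authors deposited raw counts of read pairs per gene, not normalized, made by the submitters' processing notes with Trimmomatic, STAR and HTSeq on GRCm39, and by the study's methods with the GENCODE vM27 annotation and the intersection-nonempty mode of HTSeq. Versions and the strand setting of the counting are not given in the sources used here, so reads of a gene and its antisense partner may not be told apart. The counts come from amplified cDNA with no molecular identifiers, so depth measures reads and not molecules, and floors cover counting error only.

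The lines of HTSeq that name no gene, 24.2% to 43.4% of all lines in IHC and 28.9% to 46.1% in OHC libraries, were left out of library sizes and tests. Low genes were removed with filterByExpr, given the cell types, at a minimum count of 10 and 15 in total, and the rest were normalized by TMM and compared with glmQLFit and glmQLFTest at default settings in edgeR 4.0.16 (limma 3.58.1, R 4.3.3), with Benjamini-Hochberg adjustment over all 13269 genes and a threshold of 0.05. The fit was tested on simulated data. CPM used the TMM-normalized library sizes, log2 CPM a prior count of 2, and a floor of 3 counts per library bounded the folds. Correlations used exact permutation tests (scipy 1.17.1, Python 3.11.15). Symbols, exon lengths and positions came from GENCODE vM39, which held 98.8% of the gene IDs and 99.97% of the counts.

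The 7 genes and the lists of regulators, paralogues and markers were chosen with earlier results of these data known. The genes named are the 7, every tested gene of lists of up to 8, the called genes of longer lists, at most 5 a direction by adjusted p, the neighbour genes, the 3 genes most like each member, and, of each marker list, the most abundant gene and those at 0 in every library. Some genes that these rules name are not reported here. Chd4, Snai3, Ocm, Prph, Fgfr3, Casz1, Lfng, Ntrk2, Slc17a7, Gap43 and Scrt2 were named after their values were seen. Alternatives were DESeq2 1.42.0, the edgeR exact test, DESeq2's size factors, other filters, libraries without ribosomal RNA and the 20 most abundant genes, a replicate block and each library left out. Replicates are pools the study calls biological.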

Additional observations from a re-analysis of the deposited data

Results flagged for a closer look

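In 27 groups of 6 pools, 1 value lay far from the rest in 8, by Dixon's test at 95%, where chance gives about 1 in 20.

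For the members, Ikzf2 was at 23.5 CPM in OHC replicate 3, with 6.80 CPM in the next pool. Prox1 was at 79.7 CPM in IHC replicate 6, with 32.5 CPM in the next. Bcl11b was at 1.15 CPM in IHC replicate 2, with 0.445 CPM in the next. Neurod1 was at 0.327 CPM, or 5 counts, in IHC replicate 1, with 0.0306 CPM in the next.

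For marker sums, OHC replicate 3 was lowest in hair cell markers, at 4396 CPM with 5164 CPM in the next pool, and highest in blood endothelial markers, at 200.1 CPM with 71.3 CPM in the next. Lymphoid markers were highest in IHC replicate 2, at 1.83 CPM with 0.131 CPM in the next, and in OHC replicate 6, at 0.890 CPM with 0.0610 CPM in the next. OHC replicate 3 is thus high in Ikzf2 and in endothelial markers alike, and IHC replicate 2 in Bcl11b and in lymphoid markers, and whether these go together was not tested.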

How the results depend on the processing

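The differences in mean log2 CPM of the members kept their sign under DESeq2's size factors, under library sizes without ribosomal RNA and with each library left out. With a library left out they ranged from 7.74 to 8.26 for Insm1, 6.28 to 6.70 for Insm2, 7.20 to 7.89 for Bcl11b, 7.73 to 8.13 for Neurod6, 3.07 to 3.79 for Prox1 and −1.82 to −0.55 for Ikzf2. This measure is not the fitted log2 fold change, which for Prox1 (2.92) and Ikzf2 (−0.40) lay outside these ranges. For Ikzf2 the side depended on the measure. Its ratio of mean CPM, OHC over IHC, went from 0.760 to 1.09 without IHC replicate 2, so no direction is read from the kept sign. With a library left out, the bound on the fold of Insm2 ran from 47.6 to 65.6 and that of Neurod6 from 202 to 290. Counts over all genes moved most. OHC-enriched genes numbered 324, and 519 by the exact test, 918 without a filter and 1590 by DESeq2, and IHC-enriched genes 506, 893 without a filter and 1339 by DESeq2, so that the OHC share of calls, 39.0%, became 50.7% without a filter and 54.3% by DESeq2. These 2 settings tested 27488 genes. With each library left out the counts were 225 to 402 and 369 to 551, the lowest OHC count without OHC replicate 2. Paralogues called, 0, became 1 by the exact test, 2 without a filter, 1 with at least 10 counts in every library and 4 by DESeq2, and were 0 to 1 with a library left out, Ikzf1 without IHC replicate 2 and Ikzf4 without OHC replicate 6. Corepressor subunits called, 1, became 0 with DESeq2's size factors, 0 without ribosomal RNA and the 20 most abundant genes, 0 with the replicate block, 2 by the exact test and 2 by DESeq2, and were 0 to 2 with a library left out, 2 without IHC replicate 1 and 0 without IHC replicate 6 or OHC replicate 1, 2, 4, 5 or 6. OHC function genes called, 3, became 1 with at least 10 counts in every library, which tested fewer genes, and were 1 to 3 with a library left out. Neighbour genes called, 0, became 1 without a filter, 1 by DESeq2 (Cfap61) and 0 to 1 with a library left out, Itga4 without IHC replicate 2. Hair cell and IHC factors called were 5 to 7, and E and Id proteins 0 to 0. Mean r among members in OHC pools, 0.19, ran from −0.02 without OHC replicate 1 to 0.37 without OHC replicate 2. Where no construction is named, the cause was not tested. Among single listed genes, 28 values lost the threshold and 18 gained it, and 15 of the 70 genes fitted, 0 of them called, changed sign under at least 1 alternative.

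No pairing of the pools by replicate number was seen in the counts. For its chromatin libraries the study took both cell types from each pup. Whether RNA pools of the same number share pups is not stated in the sources used here. Deviations of same-numbered IHC and OHC pools from their means correlated at −0.0313 to 0.0184, with 0 of 6 over 0.1 and no pool closest to its own number. Such low values cannot show that the pools share no pups, and the main fit did not pair them. With the replicate block 391 genes were OHC-enriched and 512 IHC-enriched.

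With 6 pools a group, the spread between pools limits the precision of Ikzf2 and of IHC levels near 0, and Neurod1 cannot be compared at this depth.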
